A study of Mus musculus with 22 samples.

Results

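Broad BRG1 regions are stretches of the mouse genome, each at least 2000 bp long, that were listed as 1 continuous BRG1 region in wildtype fibroblasts and that overlapped a BRG1 region of at least 2000 bp in fibroblasts without Lap2alpha. They were chosen from the wildtype (WT) list made after 20 cycles of sonication and the knockout (KO) list made after 16 cycles, with an overlap of at least 1 bp. The choice left 310 regions of 205999, or 0.150% of the regions and 0.799% of the bases of the WT list. Because the widths in those lists chose the regions, their width and their coverage in those lists are given as a description only.

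The regions come from chromatin immunoprecipitation with sequencing (ChIP-seq), an assay that lists where a protein was crosslinked to DNA. Mouse dermal fibroblasts, the matrix-forming cells of the skin, were either WT or Lap2alpha KO, and all were cultured in serum-containing medium and fixed with both DSG and formaldehyde before sonication for 16 or 20 cycles. BRG1, CHD4 and lamin A/C (antibodies 3A6 and E1) were mapped in both genotypes, and Lap2alpha (antibody 1H11) in WT cells. No group had a second library, so each of the 18 lists stands for 1 ChIP, and the 4 input libraries were not analysed here. How the knockout was made, and whether the cells of a genotype were 1 clone, is not given in the sources used here, and lists of regions hold no expression by which the labelled cell type could be checked. With 1 library per group no difference below has a replicate check, and no test was run.

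BRG1 is an ATPase of the SWI/SNF (BAF) chromatin remodellers, which slide or evict nucleosomes and keep promoters and enhancers accessible. CHD4 is the ATPase of the NuRD complex, which couples nucleosome remodelling to histone deacetylation and often occupies the same open elements. Lap2alpha is a nucleoplasmic protein that binds the A-type lamins, lamin A and C, which line the nuclear envelope and also form a mobile pool in the nuclear interior.

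The regions at gene starts can be seen in the promoters they hold. The 200 bases before the start are printed for 6 genes whose start is the outermost one in the RefSeq table and lies inside a broad region, on GRCm38.p6 and in the direction of the gene. Fscn1 (chr5:142960155-142960354, plus strand) holds the widest region, and Dap (chr15:31224185-31224384, plus strand) the third widest. Vgll3 (chr16:65814989-65815188, plus strand) is a further gene among those with the 12 widest regions. Zfp36l1 (chr12:80113014-80113213, minus strand) and Klf6 (chr13:5861289-5861488, plus strand) are immediate early genes, and Mmp14 (chr14:54431398-54431597, plus strand) codes for a membrane collagenase of fibroblasts. Capitals mark matches on either strand to the AP-1 motif TGANTCA, the CRE motif TGACGTCA or the TEAD motif GGAATG, none of which contains another.
Fscn1: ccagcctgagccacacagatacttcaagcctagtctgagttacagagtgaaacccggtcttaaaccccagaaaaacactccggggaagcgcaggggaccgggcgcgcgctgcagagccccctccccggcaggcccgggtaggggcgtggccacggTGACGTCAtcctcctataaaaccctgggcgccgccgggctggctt
Dap: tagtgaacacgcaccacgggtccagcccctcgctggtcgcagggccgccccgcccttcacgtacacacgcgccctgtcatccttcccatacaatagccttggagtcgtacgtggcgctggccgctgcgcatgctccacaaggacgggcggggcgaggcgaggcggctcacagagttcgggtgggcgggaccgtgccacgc
Vgll3: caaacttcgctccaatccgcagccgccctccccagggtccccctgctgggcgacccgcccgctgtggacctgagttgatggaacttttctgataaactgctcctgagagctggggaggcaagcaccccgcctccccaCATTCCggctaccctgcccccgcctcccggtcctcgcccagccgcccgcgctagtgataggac
Zfp36l1: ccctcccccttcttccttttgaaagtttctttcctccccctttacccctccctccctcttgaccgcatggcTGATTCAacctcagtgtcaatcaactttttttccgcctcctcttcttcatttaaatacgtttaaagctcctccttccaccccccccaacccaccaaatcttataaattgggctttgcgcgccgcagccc
Klf6: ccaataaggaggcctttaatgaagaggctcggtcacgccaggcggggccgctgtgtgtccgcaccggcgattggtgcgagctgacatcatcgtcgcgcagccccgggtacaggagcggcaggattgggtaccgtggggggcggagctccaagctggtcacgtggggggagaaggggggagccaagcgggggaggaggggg
Mmp14: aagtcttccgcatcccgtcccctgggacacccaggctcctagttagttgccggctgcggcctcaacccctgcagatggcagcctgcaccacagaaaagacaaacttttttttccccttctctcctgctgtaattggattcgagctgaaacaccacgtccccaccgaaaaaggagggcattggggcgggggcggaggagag
Fscn1 held a CRE, Vgll3 a TEAD match on the opposite strand and Zfp36l1 an AP-1 match, while the windows of Dap, Klf6 and Mmp14 held none of the 3 motifs. A match describes letters only.

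Over all promoters in broad regions, the windows of 300 bases (250 before and 50 after a start) were GC-rich. Of protein-coding genes, 146 had 169 such starts in a broad region, out of 17492 genes with 21263 starts in the table. The median GC content was 65.3% in the 169 windows, 61% in the 7912 windows whose start lay in another WT BRG1 region, and 56.3% over all windows. A CpG observed to expected ratio of at least 0.6, a usual mark of CpG island promoters, was reached by 75.1% of windows in broad regions, 74.5% in other BRG1 regions and 47.7% of all.

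Among the motifs, CRE was found in 10 windows of broad regions, or 5.92% (95% Wilson interval 3.25 to 10.5), against 3.37% in other BRG1 regions and 2.23% of all. AP-1 matches were in 2.96%, against 6.12% and 6.99%, and TEAD matches in 13.0%, against 11.8% and 13.6%. The GC box GGGCGG was in 68.0%, 64.7% and 46.2%. The AP-1, CRE and RUNX shares in broad regions each rested on 10 windows or fewer. The ETS motif CCGGAAG was in 13.6%, 20.4% and 11.6%, and the CCAAT box CCAAT in 32.5%, 37.9% and 38.2%. The TATA box TATAAA was in 11.24%, 6.94% and 12.6%, the MYC E box CACGTG in 9.47%, 10.4% and 7.84%, and the RUNX motif TGTGGTT in 2.37%, 3.68% and 4.71%.

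The regions were between 2002 and 5018 bp wide, with a median of 2424 bp and quartiles of 2180.5 and 2731 bp. Of them, 44 were 3000 bp or wider, and together the regions covered 785.852 kb. They were 20.8% of the 1493 WT regions of 2000 bp or wider, and the 309 KO regions they met were 22.9% of the 1347 KO regions of that width. The broad class was therefore mostly not shared by width: 1183 WT regions were broad in the WT list only, although 1172 of these, 99.1%, met some KO region of a lesser width. A median of 89.2% of each shared region lay inside its KO partner, and 10 regions had less than 50% inside it.

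Regions just inside and just outside the width bound were compared as a description. The 45 regions within 100 bp above the bound had a mean CHD4 coverage of 71.2% in WT cells at 20 cycles, and 37.8% of them lay at a gene end. For the 33 regions within 100 bp below the bound that met a broad KO region, these values were 69.3% and 39.4%. For the 63 WT broad regions whose KO partner was within 100 bp below the bound, they were 62.2% and 49.2%.

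BRG1 was then read in the lists that had no part in the choice, which share their antibody and genotype with the ones that did. The WT list at 16 cycles covered a mean of 51.3% of each region (quartiles 35.1% and 72.1%), and the KO list at 20 cycles a mean of 69.8% (quartiles 54.4% and 85.0%). A BRG1 region was present in the WT list at 16 cycles for 287 of the 310 regions, 92.6%, against a background of 28.5% of all WT BRG1 regions at 20 cycles. In the KO list at 20 cycles all 310 held one, against 40.1%. Both lists covered 287, against 23.1%. The sets nearest in width were close to this. Of regions broad in the WT list only, 90.8% held one in the WT list at 16 cycles and 90.4% in both lists. Of those of 1000 to under 2000 bp, 84.1% and 81.2% did. The chance of holding any region grows with width, and the background regions are narrower. The share covered also varied with width. WT BRG1 at 16 cycles covered a mean of 19.0% of WT regions under 1000 bp, 54.9% of those of 1000 to under 2000 bp and 42.8% of those broad in the WT list only. KO BRG1 at 20 cycles covered 27.5%, 66.6% and 59.1% of these sets.

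The other lists broke the regions into pieces. In the KO list at 20 cycles, 54.8% of the broad regions held 2 or more separate BRG1 regions, and in the WT list at 16 cycles 40% did. As 1 stretch of 2000 bp or more, BRG1 was met by 93 regions in the KO list at 20 cycles, 30.0% against a background of 0.87%, and by 33 in the WT list at 16 cycles, 10.6% against 0.261%. Of the regions broad in the WT list only, 11.8% and 4.73% met such a stretch in these lists. Most broad regions were thus narrower or in pieces in the lists left out of the choice.

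The centre of a broad region was covered more than its edges. When each region was cut into 5 equal slices, WT BRG1 at 16 cycles covered 33.3%, 60.9%, 69.3%, 60.7% and 32.5% of them in order, and WT CHD4 at 20 cycles covered 52.4%, 77.2%, 84.5%, 76.5% and 47.1%. Lap2alpha in WT cells at 20 cycles covered 3.74%, 6.11%, 9.42%, 7.57% and 3.72%. The lamin A/C lists differed among themselves: KO 3A6 at 16 cycles covered 1.83% of the first slice and 1.72% of the middle one, while KO E1 at 16 cycles covered 0.361%, 1.05%, 1.05%, 0.762% and 0.635%. WT E1 at 16 cycles covered 0.322% of the middle slice and 0% of the first and last, which rests on 2 regions.

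**Figure D1:**
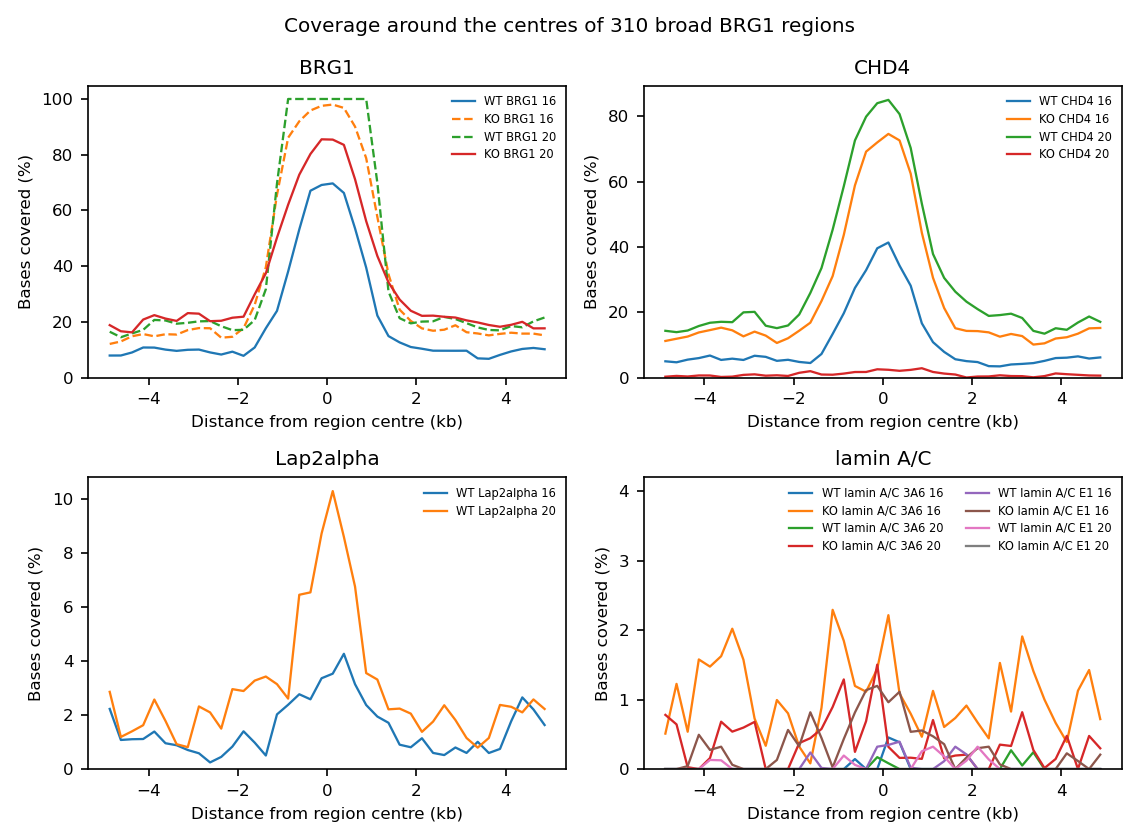
Share of bases covered by each list (y axis, %) in 250 bp bins by distance from the centre of the 310 broad BRG1 regions (x axis, kb), in 4 panels by protein; lines are libraries, and dashed lines are the lists that chose the regions. BRG1, CHD4 and Lap2alpha in WT cells peak at the centre, and the lamin A/C lines stay below 2.5% with no peak common to all lists.

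CHD4 lay on almost every broad region. In WT cells at 20 cycles all 310 held a CHD4 region, against a background of 32.4%, and the mean coverage was 67.6% (quartiles 53.3% and 82.5%). In WT cells at 16 cycles 217 regions held one, 70.0% against 17.1%, and the mean coverage was 26.7%. None lacked CHD4 in both WT lists, so 0 of 310 regions, which allows a share of up to 0.968%, had no CHD4 region where 63.7% of all WT BRG1 regions had none. In the sets nearest in width, 0.423% of regions broad in the WT list only and 5.20% of those of 1000 to under 2000 bp had none. CHD4 was in both WT lists at 217, or 70.0% against 13.2%, and the same 217 also held it in KO cells at 16 cycles, against 11.4%. In that KO list 303 regions held CHD4, 97.7% against 29.6%.

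CHD4 was itself broad at a minority of the broad BRG1 regions. A CHD4 region of 2000 bp or wider in WT cells at 20 cycles met 93 broad BRG1 regions, 30.0% against a background of 0.917%, and 13.7% of those broad in the WT list only. In KO cells at 16 cycles 70 regions met one, 22.6% against 0.648%, and 5.66% of those broad in the WT list only. In WT cells at 16 cycles 10 regions did, 3.23% against a background of 0.11%, and 1.69% of those broad in the WT list only. The KO list at 20 cycles held no CHD4 region of that width.

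CHD4 coverage differed between genotypes in opposite directions at the 2 sonication lengths. At 16 cycles the mean coverage was 26.7% in WT and 56.8% in KO cells, 30.0 percentage points higher in KO. It was higher in KO at 266 regions, 85.8% against a background of 24.5%, lower at 36, or 11.6% against 6.91%, and equal at 8. At 20 cycles it was 67.6% in WT and 2.04% in KO cells, with 47 regions holding a KO CHD4 region (15.2% against 1.76%) and none higher in KO, against 0.324%.

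The CHD4 lists differed in size at both sonication lengths. At 16 cycles the WT list held 49441 regions (24.1 Mb) and the KO list 88788 (52.3 Mb). At 20 cycles the WT list held 109769 regions and the KO list 7283. The part of list size in the differences was not tested. The mean difference over both lengths was -17.7 ± 67.6 percentage points (SD, n = 2 pairs), smaller than its spread. When the lists of a pair were trimmed to the same number of widest regions it was -7.89 ± 50.2. Other WT BRG1 regions had differences of the same signs: for the 1183 broad in the WT list only, the difference was 20.2 points at 16 cycles and -53.8 at 20 cycles. For the 15409 regions of 1000 to under 2000 bp it was 24.6 and -58.9 points. Whether the broad regions differ from these was not tested.

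**Figure D2:**
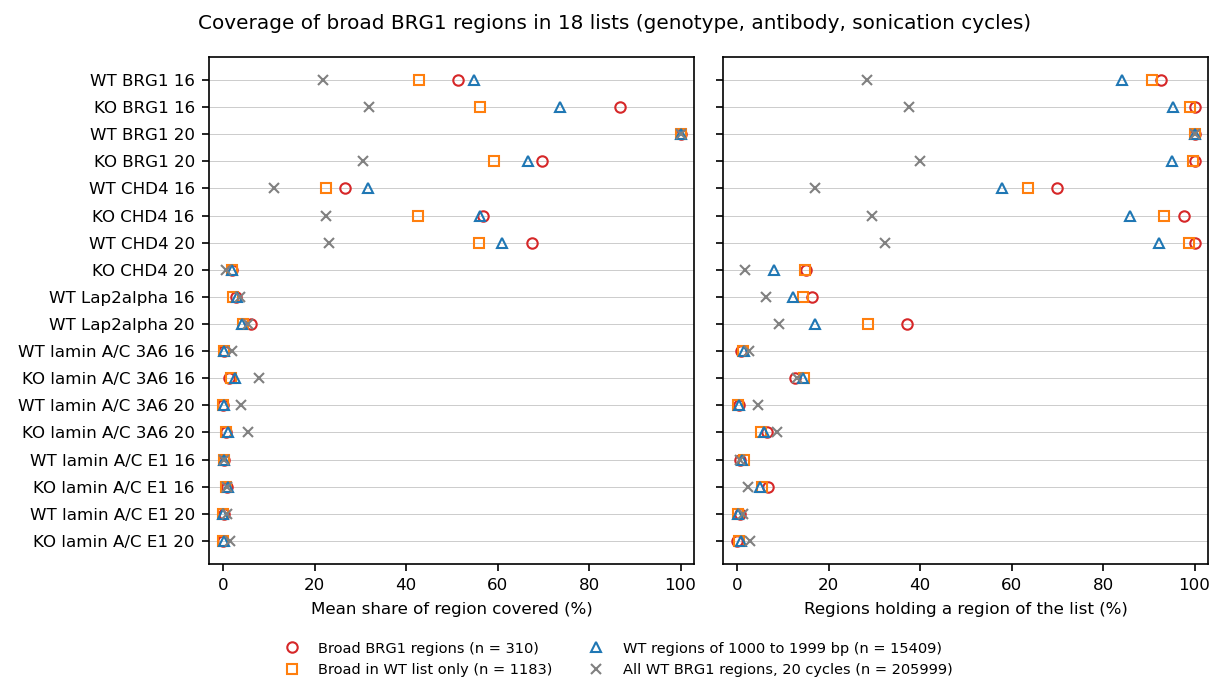
Mean share of a region covered (left, %) and share of regions holding a region of the list (right, %), for each of the 18 lists named by genotype, antibody and sonication cycles; symbols are the 310 broad BRG1 regions and 3 sets of WT BRG1 regions of 20 cycles. The broad regions reach 67.6% coverage by WT CHD4 at 20 cycles and 6.11% by Lap2alpha at 20 cycles, while no lamin A/C list covers more than 1.29% of them.

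The placement of broad regions was read against the protein-coding genes of the RefSeq table. That table gives both ends of a gene but no strand, so a gene end is a start or a 3' end. Of the 310 regions, 156 lay within 1 kb of a gene end, 50.3% (95% Wilson interval 44.8 to 55.9) against a background of 8.89% of all WT BRG1 regions. A further 86 lay in a gene body, 27.7% against 41%, and 68 lay outside genes, 21.9% against 50.1%. Within 5 kb of a gene end there were 183, or 59.0% against 21.8%.

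The share at gene ends rose over the width classes of the WT list: 7.10% of regions under 1000 bp, 27.2% of those of 1000 to under 2000 bp and 45.7% of those broad in the WT list only. It was 50.3% for the shared broad regions, which have the same width bound. With 3000 bp required in both lists it was 25% of 12 regions. A wide region reaches a gene end more easily. By the centre alone, which does not depend on width, 38.7% of the shared broad regions were within 1 kb of a gene end, 36.9% of those broad in the WT list only, 23.1% of those of 1000 to under 2000 bp and 7.73% of all. The intervals of the first pair overlapped (33.5 to 44.2 and 34.2 to 39.7).

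At gene starts with a known direction, broad regions more often reached further into the gene than away from it, measured from the outermost start in the region. A start of the RefSeq promoter table lay in 144 regions, 107 of which held starts of a single gene. Of these, 67 extended further downstream and 40 further upstream, with a median of 1443 bp downstream and 1061 bp upstream of the start. Where a gene had several starts in a region, the outermost was used. That choice favours the downstream side, and no other choice of start was tried. At Fscn1 the region reached 2230 bp upstream and 2787 bp downstream, and at Tns2, a focal adhesion protein, 151 bp and 2987 bp. At Dap it was longer on the other side, with 2520 bp upstream and 1739 bp downstream. The remaining 37 regions held starts of 2 or more genes, and all 37 held starts on both strands.

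Remodeller coverage differed by placement in the lists of 16 cycles. WT CHD4 at 16 cycles covered a mean of 14.7% of the 156 regions at gene ends, 33.0% of the 86 in gene bodies and 46.5% of the 68 outside genes, and was present at 54.5%, 76.7% and 97.1% of them. WT CHD4 at 20 cycles covered 66.0%, 69.4% and 68.7%. KO CHD4 at 16 cycles covered 46.8%, 63.4% and 71.1%. So both CHD4 lists at 16 cycles were lowest at gene ends and highest outside genes, and the WT list at 20 cycles was level.

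BRG1 in the lists left out of the choice had the same form. WT BRG1 at 16 cycles covered 44.8%, 54.1% and 63.0% of the regions at gene ends, in gene bodies and outside genes, and KO BRG1 at 20 cycles covered 69.2%, 69.5% and 71.5%. The order was not peculiar to broad regions: over WT BRG1 regions of 1000 to under 2000 bp, WT CHD4 at 16 cycles covered 13.4%, 34.1% and 42.6%, and WT BRG1 at 16 cycles 41.4%, 57.3% and 62.4%. The median widths of the broad regions by placement were 2408, 2432 and 2424 bp.

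**Figure D3:**
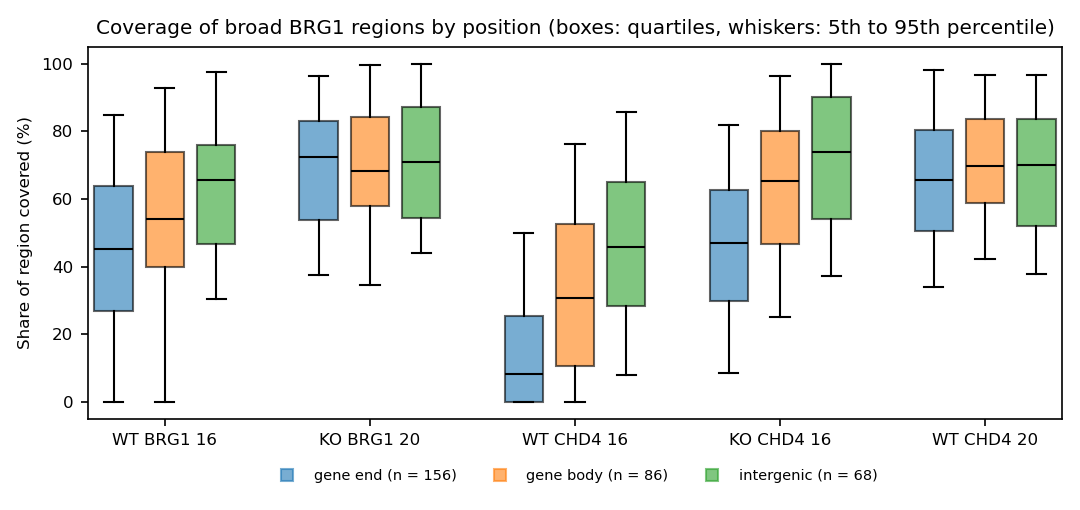
Share of each broad BRG1 region covered (y axis, %) in 5 lists (x axis), split by placement at a gene end (156 regions), in a gene body (86) or outside genes (68); boxes are quartiles with the median line, and whiskers run from the 5th to the 95th percentile. In WT CHD4 at 16 cycles the medians are 8.19%, 30.9% and 45.8%, and in WT CHD4 at 20 cycles the 3 boxes lie at about the same height.

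Lap2alpha lay on a minority of the broad regions. In WT cells at 16 cycles 51 held a Lap2alpha region, 16.5% against a background of 6.33%, and the mean coverage was 2.92%. At 20 cycles 115 did, 37.1% against 9.14%, with a mean coverage of 6.11%. Over all WT BRG1 regions the mean coverage was 3.62% at 16 and 5.43% at 20 cycles, so the broad regions were lower in the first list and higher in the second. The mean over both libraries was 4.51 ± 2.26% (SD, n = 2), against 3.30% for regions broad in the WT list only and 3.56% for those of 1000 to under 2000 bp. At least 1 list had Lap2alpha at 137 regions, 44.2% against 14.5%, both lists at 29, 9.35% against 1.01%, and neither at 173. Of the regions broad in the WT list only, 37.3% had it in at least 1 list and 5.83% in both, and of those of 1000 to under 2000 bp 26.3% and 2.99%.

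By placement, Lap2alpha at 20 cycles was present at 45.5% of the broad regions at gene ends, 25.6% of those in gene bodies and 32.4% of those outside genes, with mean coverages of 7.62%, 3.66% and 5.76%. At 16 cycles the presence was 14.1%, 16.3% and 22.1%. The order of the placements thus changed with the library. Of the 137 regions with Lap2alpha, 57.7% lay at a gene end, against 44.5% of the 173 without it. Their CHD4 coverage in WT cells was 31.4% against 23.0% at 16 cycles and 71.2% against 64.7% at 20 cycles, and their median widths were 2491 and 2364 bp.

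The broad region with the most Lap2alpha was at Klf6, a zinc finger transcription factor induced early by serum. It is 2342 bp wide (chr13:5861005-5863346) and was covered by Lap2alpha to 56.1% at 16 and 61.8% at 20 cycles. CHD4 covered 85.4% and 87.4% of it in WT cells and 56.9% and 0% in KO cells, at 16 and 20 cycles. BRG1 covered 80.1% in WT cells at 16 cycles and 56.0% in KO cells at 20 cycles. Of the lamin A/C lists only KO E1 at 16 cycles touched it, at 15.0%.

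The region at Myc, the growth-promoting transcription factor (chr15:61985349-61987743, 2395 bp, 8 bp from the gene end), came next. Lap2alpha covered 32.7% of it at 16 and 43.4% at 20 cycles. WT BRG1 and WT CHD4 at 16 cycles had no region there, while WT CHD4 at 20 cycles covered 83.3%, KO CHD4 at 16 cycles 34.4% and KO BRG1 at 20 cycles 60.0%. At Tpm1, a tropomyosin that stabilises actin filaments, a region of 2141 bp in the gene body had 54.0% and 13.8% Lap2alpha coverage at 16 and 20 cycles. At Mrps18b, a mitochondrial ribosomal protein gene, and its neighbour Ppp1r10, a region of 2560 bp had 23.6% and 34.2%.

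The remaining regions among the 6 with the most Lap2alpha lay at the long noncoding RNA genes Malat1 and Neat1, whose transcripts sit in nuclear speckles and paraspeckles. The region over the end of Malat1 (chr19:5801607-5805093, 3487 bp) had 25.2% and 36.9% Lap2alpha coverage at 16 and 20 cycles, and the one in Neat1 (chr19:5841334-5844054, 2721 bp) had 24.0% and 48.4%. A broad region between them (chr19:5809374-5811399, 2026 bp) had none at 16 cycles and 43.2% at 20 cycles. CHD4 in WT cells covered 70.9%, 52.3% and 75.8% of the regions at Malat1, between the genes and at Neat1 at 16 cycles, and 93.5%, 95.4% and 77.4% at 20 cycles. These 3 regions lie within 42448 bp, the largest group of broad regions with gaps of at most 50 kb.

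**Figure D4:**
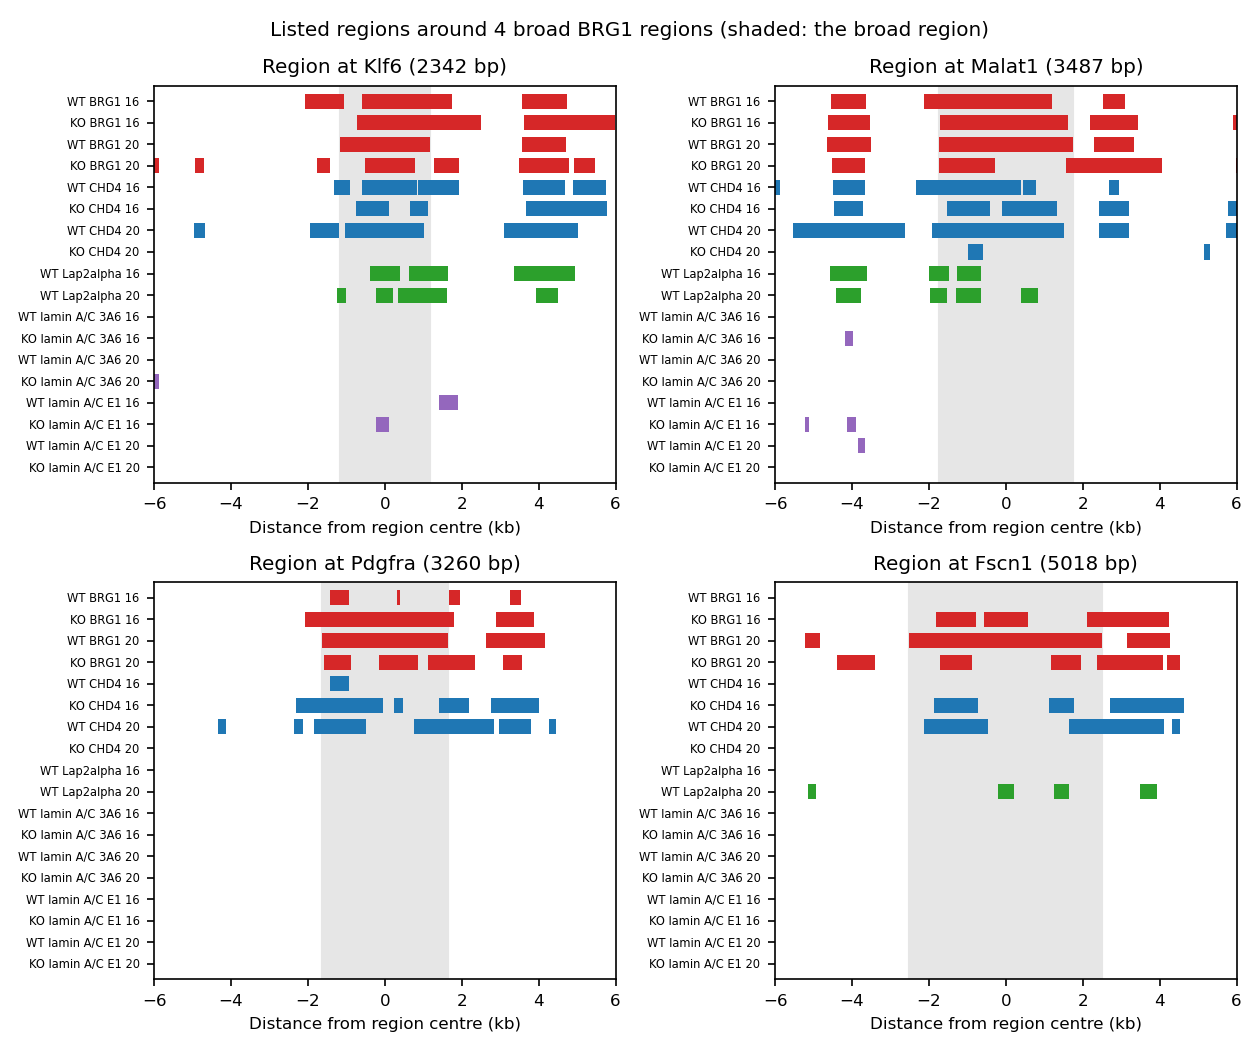
Listed regions of the 18 lists (rows, named by genotype, antibody and sonication cycles) around the broad BRG1 regions at Klf6 (2342 bp), Malat1 (3487 bp), Pdgfra (3260 bp) and Fscn1 (5018 bp), by distance from the region's centre (x axis, kb); bars are listed regions, and shading is the broad region. Lap2alpha bars lie in the regions at Klf6 and Malat1 in both lists, in that at Fscn1 in 1 list and in that at Pdgfra in none.

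Lamin A/C was rare on broad regions in every list. In WT cells 3A6 lay on 3 regions at 16 cycles (0.968% against a background of 2.64%) and 1 at 20 cycles (0.323% against 4.6%), and E1 on 2 at 16 cycles (0.645% against 0.592%) and 2 at 20 cycles (0.645% against 1.32%). In KO cells 3A6 lay on 39 at 16 cycles (12.6% against 13.1%) and 20 at 20 cycles (6.45% against 8.64%). KO E1 lay on 21 at 16 cycles, 6.77% against 2.33%, and on 0 of 310 at 20 cycles, which allows a share of up to 0.968%, against 2.77%. That last list is the longest of the 18, with 233769 regions.

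The lamin A/C coverage of broad regions was below 1.3% in all 8 lists. With 3A6 the mean was 0.105% in WT and 1.29% in KO cells after the shorter sonication, and 0.0203% and 0.611% after the longer one. E1 gave 0.115% in WT and 0.772% in KO cells after 16 cycles, but 0.0888% and 0% after 20. KO was higher in 3 of 4 pairs and lower in the E1 pair at 20 cycles. Each KO list held more regions than its WT pair. For 3A6 these were 188132 against 86033 at 16 cycles and 226877 against 182893 at 20 cycles. For E1 they were 107717 against 43798 and 233769 against 144489. The part of list size was not tested. The mean difference was 0.586 ± 0.522 percentage points (SD, n = 4 pairs), against 2.27 ± 2.53 over all WT BRG1 regions, where KO was higher in 4 of 4. For regions broad in the WT list only it was 0.656 ± 0.659, and for those of 1000 to under 2000 bp 1.09 ± 0.931. No test of these differences was run.

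Region by region, 233 broad regions had lamin A/C in no list, 75.2% against a background of 74.3%. At least 1 WT list had it at 7, 2.26% against 6.76%, and at least 1 KO list at 72, 23.2% against 22.5%. KO lists alone had it at 70, 22.6% against 19%, and WT lists alone at 5, 1.61% against 3.19%. The shares in at least 1 KO list and in no list were thus near the background, whose regions are narrower. Of regions broad in the WT list only, 76.0% had it in no list and 22.2% in at least 1 KO list. For those of 1000 to under 2000 bp these were 76.2% and 22.3%. Mean lamin A/C coverage was below the background, 0.0821% against 1.68% over WT lists and 0.668% against 3.95% over KO lists. Regions broad in the WT list only had 0.0843% and 0.741%. Only 8 of the shared broad regions had lamin A/C in 2 or more KO lists and no WT list, 2.58% against 2.64%. None was higher in KO in all 4 pairs (background 0.0223%), in 3 of 4 (0.286%), or lower in all 4 (0.0306%).

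The highest KO lamin A/C coverage was on a region 65766 bp from the nearest gene, Pomp (chr5:147792605-147794862). It had 12.5% in 3A6 and 21.3% in E1, both at 16 cycles. The region at Resf1 (chr6:149308203-149310852), a regulator of retroelement silencing, had 25.3% and 7.47% in 3A6 at 16 and 20 cycles. At Acvr2a, an activin receptor, 1 list (3A6, 16 cycles) covered 31.4% of the region, the most of any lamin A/C list on any broad region. At Sox5, a transcription factor gene, and Trim11, a ubiquitin ligase gene, both 3A6 lists touched the region, with 8.30% and 13.5% at Sox5 and 12.2% and 8.46% at Trim11, at 16 and 20 cycles. At Stam, an endosomal sorting gene, 3A6 and E1 at 16 cycles covered 12.3% and 8.29%. None of these 6 regions had lamin A/C in a WT list.

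In WT cells the most lamin A/C was at Spata4, a testis gene (chr8:54609102-54611315), with 15.3% in 3A6 and 16.4% in E1 at 16 cycles, and 18.4% in KO E1 at 16 cycles. It was the only broad region in 2 WT lists, and it also had Lap2alpha in both lists, 35.5% and 13.6%. The region in Neat1 had 20.6% in WT E1 at 20 cycles. The other 5 had 1 WT list each, with 19.2% in E1 at 16 cycles on a region 1468078 bp from the nearest gene, Slc10a2, 11.7% and 5.40% in 3A6 at 16 cycles at Clcn1 and 13985 bp from Esf1, 6.95% in E1 at 20 cycles at Ccdc9b and 6.31% in 3A6 at 20 cycles at Tns2. Lap2alpha and WT lamin A/C shared 5 regions, 1.61% against 1.7%. Lap2alpha and KO lamin A/C shared 33, 10.6% against 4.01% of all and 8.37% of regions broad in the WT list only. Taken singly, Lap2alpha was in at least 1 list at 44.2% against 14.5%, and KO lamin A/C at 23.2% against 22.5%. Whether the 2 proteins share regions beyond these single shares was not tested.

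The surroundings of the broad regions held more of every remodeller than the sequence farther out, up to 100 kb. WT CHD4 at 20 cycles covered 67.2% of the bases inside, 23.7% of the first 1 kb to each side, 15.7% from 1 to 5 kb, 9.85% from 5 to 20 kb and 6.72% from 20 to 100 kb. Lap2alpha at 20 cycles covered 6.196% inside and 2.13%, 1.77%, 1.57% and 1.31% in the same flanks. KO lamin A/C 3A6 at 16 cycles covered 1.29% inside and 0.692%, 1.08%, 1.39% and 1.36% in the flanks, with no excess inside over the distance from 5 to 20 kb. KO E1 at 16 cycles did have one, with 0.694% inside, 0.399% in the first 1 kb and 0.147% from 5 to 20 kb.

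Of 21887 protein-coding genes, 291 had a broad BRG1 region in the body or within 5 kb, a background of 1.33%. An end within 1 kb of one was found for 182, or 0.832%, and 8 genes had 2 broad regions. The most bases of broad regions were at Fmn1, an actin-nucleating formin (5553 bp), Nrg1, a ligand of ERBB receptors (5466 bp), and Actn1, the actin crosslinker alpha-actinin (5023 bp). Fscn1, which bundles actin filaments, had 5018 bp, Cald1, the actin- and myosin-binding caldesmon, 4974 bp, and Sdccag8, a centrosomal protein gene, 4567 bp. Next came Zmiz1, a transcriptional coregulator (4403 bp), the neutrophil chemokine Cxcl5 (4303 bp), Dap, a negative regulator of autophagy (4260 bp), and Cdk6, a cell cycle kinase (4226 bp). Of these 10 genes, 4 bind or build actin filaments; that was seen after their names were known.

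The widest region (chr5:142958125-142963142, 5018 bp) covers the start of Fscn1. WT BRG1 and WT CHD4 at 16 cycles had no region in it, while KO BRG1 at 20 cycles covered 35.7%, WT CHD4 at 20 cycles 50.7% and KO CHD4 at 16 cycles 35.5%. Lap2alpha had no region at 16 cycles and covered 16.5% at 20 cycles. KO BRG1 at 16 cycles, a list that chose the regions, covered 51.5%. At Cxcl5 (4303 bp) WT BRG1 at 16 cycles covered 49.2% and KO BRG1 at 20 cycles 41.0%, and at Dap (4260 bp) 54.9% and 64.1%.

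The region in Tsc22d1, a leucine zipper gene induced by TGF-beta, was 4138 bp wide, as was its KO partner, and lay 28193 bp from a gene end. Regions of 3906, 3801 and 3637 bp lay outside genes, 172568 bp from the cell cycle inhibitor gene Cdkn2b, 19881 bp from the kinase gene Prkca and 49778 bp from a predicted gene. Transcription factor and cofactor genes made up the rest with 1 exception: Osr2 (3888 bp), Creb5 (3870 bp), Hoxc4 (3797 bp) and Vgll3 (3694 bp), a cofactor of TEAD factors. The exception was Rusc2, a vesicle trafficking gene (3651 bp). Over these 12 widest regions WT CHD4 at 20 cycles covered between 43.1% and 69.4%.

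Genes of contraction and actin binding carried broad regions at 5 of 26 (19.2%, Wilson interval 8.51 to 37.9), against 1.33% of all genes. Among them were Cald1 (2 regions), Actn1 (2 regions), Tpm4 and Tpm1, which code for caldesmon, alpha-actinin and a pair of tropomyosins. The genes of this list are longer, with a median of 26.7 kb against 17.2 kb over all genes. At Cald1 the region at a gene end had Lap2alpha in both lists, 37.7% and 19.5%, and WT CHD4 coverage of 65.5% and 56.2% at 16 and 20 cycles. At Tpm4 Lap2alpha covered 44.5% at 20 cycles and none at 16 cycles.

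Immediate early and AP-1 genes had broad regions at 4 of 28 (14.3%, 5.70 to 31.5), namely Zfp36l1, Myc, Klf6 and Mafk, and the median length of these genes is 5.14 kb. Lap2alpha lay on the first 3 in both lists, with 14.7% and 42.0% at Zfp36l1, which promotes mRNA decay, and on neither list at Mafk, a small MAF factor. Fibroblast transcription factors had broad regions at 3 of 26 (11.5%), which were Osr2, Runx1 and Nfia. The genes of this list are longer, with a median of 58.3 kb against 17.2 kb over all genes. The regions in Runx1 and Nfia lay 93258 and 196033 bp from an end of the gene. Fibroblast and matrix genes had broad regions at 3 of 35 (8.57%), namely Pdgfra, the PDGF receptor that marks fibroblasts, Fbn1, the microfibril protein fibrillin, and Mmp14.

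At Pdgfra (chr5:75150954-75154213, 3260 bp) WT BRG1 at 16 cycles covered 17.9% and KO BRG1 at 20 cycles 67.2%. CHD4 there was 15.4% and 61.2% in WT cells at 16 and 20 cycles and 62.3% in KO cells at 16 cycles, with no Lap2alpha and no lamin A/C in any list. The region at Fbn1, in the gene body, was covered to 87.9% and 100% by these BRG1 lists, and to 76.4% and 83.7% by WT CHD4. At Mmp14 WT CHD4 covered 13.2% and 74.3%. WT CHD4 coverage of the 3 genes' regions thus ranged from 13.2% to 76.4% at 16 cycles and from 61.2% to 83.7% at 20 cycles.

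In the signalling and cell cycle lists, 0 to 2 genes had a broad region, beside 1.33% of all genes. The signalling lists do not hold every such gene. Acvr2a, an activin receptor, and Nrg1, a ligand of ERBB receptors, carried broad regions and are in none of the gene lists. TGF-beta and BMP genes had broad regions at 2 of 26 (7.69%), the repressor genes Tgif1 and Smad7, and cell cycle genes at 2 of 30 (6.67%), E2f1 and Cdk6. The median gene length of the TGF-beta and BMP list is 65.1 kb, against 17.2 kb over all genes. The KO partner of the Tgif1 region, at 6280 bp, was the widest of all. YAP and SRF targets had 1 of 19 (5.26%), Amotl2, an angiomotin that restrains YAP, and growth factor signalling genes 0 of 20. Housekeeping genes had 2 of 25 (8%), B2m and Ppia, so a share of this size was not confined to fibroblast genes.

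Genes of the mapped proteins and their complexes were counted in the same way, beside 1.33% of all genes. Of 22 SWI/SNF subunit genes none carried a broad region, and of 14 NuRD subunit genes 1 did (7.14%), Chd3, a paralog of CHD4, with 3620 bp. Of 21 nuclear envelope genes 1 did (4.76%), Lmna, which codes for lamin A and C. Its region was the narrowest of all (chr3:88494797-88496798, 2002 bp, 13134 bp from a gene end), with no WT BRG1 or CHD4 at 16 cycles, 61.0% WT CHD4 at 20 cycles and 66.1% KO CHD4 at 16 cycles. It had neither Lap2alpha nor lamin A/C in any list.

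No marker listed for another cell type had a broad region, a count near the background. Over keratinocyte, endothelial, leukocyte, neuronal, muscle, adipocyte and melanocyte markers the count was 0 of 85 genes, beside 1.33% of all genes. With 1500 bp as the minimum width, 3 neuronal and 1 endothelial gene had one, and with intervals merged across gaps of up to 500 bp 4 of the lists had 1 gene each. Of these markers, 76 of the 85 had some WT BRG1 region in the body or within 5 kb, beside 82.5% of all genes. These lists name genes by knowledge of cell types, and broad BRG1 regions are not a measure of expression. The counts in every list are small, and no enrichment test was run.

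**Figure D5:**
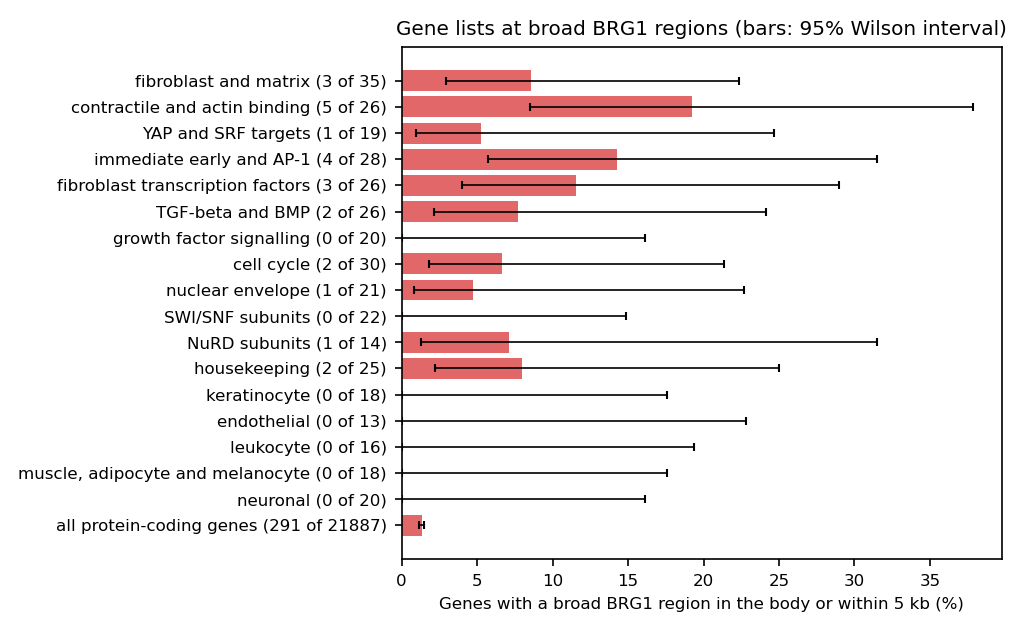
Share of genes with a broad BRG1 region in the body or within 5 kb (x axis, %) for 17 gene lists and all 21887 protein-coding genes (y axis, with counts); bars are shares and lines are 95% Wilson intervals, which cover counting error only. Contractile and actin-binding genes reach 19.2% and immediate early genes 14.3%, the 5 lists of other cell types are at 0, and the intervals of most lists overlap.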

How the data were processed

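Per the file values, the authors deposited intervals alone (chromosome, start and end in base pairs), with no height, fold or significance. The submitters' processing notes name the build GRCm38 and the tools MACS2 2.1.4, HOMER 4.11.1, bedtools, deepTools and SAMtools. What each tool did, the calling threshold, the control and each library's depth are not given in sources used here. Overlapping intervals of a list were merged, which changed nothing in the lists that chose the regions; intervals of width 0 and mitochondrial ones were left out. Groups come from the sample titles.

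For each region the percent of bases covered by each list was computed in Python 3.11.15 with numpy 2.4.6 and pandas 2.3.3, and shares have 95% Wilson intervals, which cover counting error only and treat regions as independent. Background is the same share over all WT BRG1 regions of 20 cycles, or over all protein-coding genes. Differences are KO minus WT, given as mean ± SD over matched pairs. Interval functions were tested on simulated data. RefSeq gene and promoter tables (GRCm38.p6) gave positions and sequences; the promoter table covers 17492 of 21887 genes (79.9%) and none on chromosome 18. Of the genes in the lists 1 symbol was unmatched, and 1 gene with a broad region is not reported here.

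Named were the 12 widest regions, the 10 genes with the most bases, up to 4 genes per list, and the 6 regions with the most Lap2alpha and with the most lamin A/C in each genotype; predicted genes were not named, and the rules for lamin A/C in all 4 pairs and for regions without WT CHD4 gave none. The regions, gene lists and rules were chosen with earlier results of these data known. Motifs, neighbouring groups of regions and the split by Lap2alpha were added after the lists were seen.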

Additional observations from a re-analysis of the deposited data

Results flagged for a closer look

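The difference in CHD4 coverage of broad BRG1 regions between KO and WT cells went in opposite directions at the 2 sonication lengths: 30.0 percentage points at 16 cycles and -65.5 points at 20 cycles. Of the 310 regions, 266 were higher in KO at 16 cycles and 310 were lower in KO at 20 cycles. The KO list held 88788 regions at 16 cycles, against 49441 in WT, and 7283 at 20 cycles, against 109769. The difference between the lengths was not tested, since each rests on 1 library per genotype.

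Lamin A/C coverage with antibody E1 also differed in direction between the lengths, with 0.657 percentage points at 16 cycles and -0.0888 points at 20 cycles, and this was not tested either. At 20 cycles the value rests on 2 regions with E1 in WT cells and none in KO cells.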

How the results depend on the processing

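Of 54 alternatives tried for the main results, 43 were counted as unchanged. The count of regions had to stay within 1.5 times, and the share at a gene end within its Wilson interval. Other values had to move by less than their SD, and differences had to keep their side of 0. For CHD4 that SD was 67.6 points over 2 pairs of opposite sign. That rule says little about CHD4: -65.5 points at 20 cycles only was counted as unchanged from -17.7. Requiring 1500 bp in both lists gave 1366 broad regions, 3000 bp gave 12, and joining intervals across gaps of up to 500 bp gave 1413, against 310. The share at a gene end, 50.3%, was 44.4%, 25% and 44.1% under these settings, 59.0% with gene ends taken to 5 kb, and 43.8% with KO BRG1 at 20 cycles as the second list, an alternative chosen after seeing the data. BRG1 coverage in the lists left out of the choice was a mean of 60.6% and rose to 75.9% in the central 1 kb, and Lap2alpha coverage went from 4.51% to 7.84% at 3000 bp. CHD4 coverage, KO minus WT, was -17.7 points over both lengths and 30.0 at 16 cycles only, and -7.89 when the lists of a pair were trimmed to the same number of widest regions. Lamin A/C coverage, KO minus WT, was 0.586 points and lay between 0.251 (20 cycles only) and 0.920 (16 cycles only), with KO higher on average under each alternative. The cause of these shifts was not tested. Gene counts per list were small: of 119 alternatives 43 moved one by over 1.5 times. Leaving intervals unmerged changed no value, which was fixed in advance. It was applied only to the lists that chose the regions, where no intervals overlapped, and coverage still came from merged lists. These settings are counted among the 43. No pairing by replicate was possible because the labels give no replicate numbers and each group is 1 library. The pairs above match lists by antibody and sonication length only. For the same reason no replicate could be left out. Depth, peak strength and the control of each list are unknown, so an unlisted site cannot be told apart from a shallow one.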

Other observations

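Broad BRG1 regions were spread over the genome, with 30 on chromosome 2, 27 on chromosome 3, 23 each on chromosomes 11 and 15, 4 on X and none on Y. Chromosome 15 held 7.42% of them and 5.55% of all WT BRG1 regions, and chromosome 7 held 2.26% and 4.30%. Most stood alone: 291 had no other within 50 kb, and the other 19 formed 9 groups. Neighbouring regions at Cdk6 (2112 and 2114 bp within 4273 bp), at Actn1 (2659 and 2364 bp within 5491 bp) and at 9330182O14Rik (2748 and 2283 bp within 5126 bp) filled over 90% of their spans. At Itga5, the alpha chain of a fibronectin receptor, regions of 2094 and 2004 bp filled 68.8% of 5953 bp, and other pairs lay at Krt80, S100a10, Kif5b and Hoxc6 with Hoxc4. These groups were looked for after the lists were seen.

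Noncoding genes of the RefSeq table were overlapped by 85 broad regions, and 61 regions had no protein-coding gene within 5 kb. Across the 310 regions, WT BRG1 and WT CHD4 coverage at 16 cycles had a Spearman rho of 0.58, and CHD4 at 16 cycles in WT and KO cells 0.46. WT CHD4 at 16 and 20 cycles had a rho of 0.18, and mean Lap2alpha and mean KO lamin A/C coverage 0.00. Points within a list share its depth and calling, and regions are not replicates.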
